A study of Mus musculus with 6 samples.

Results

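Translation initiation factor genes were followed in erythroid cells of the mouse fetal liver, in 3 libraries labelled Tfam KO and 3 labelled Tfam WT. The genes were taken as all symbols that begin with Eif1 to Eif6, leaving out the eIF2 kinases (Eif2ak), the eIF4E-binding proteins (Eif4ebp) and the sex-linked Eif2s3x and Eif2s3y. Of 49 such symbols, 45 had a mean of at least 1 RPKM (RPKM scales reads to transcript length and library size) over the 6 libraries, out of 8302 rows of the table that reach this level. Just below the limit stood Eif2c1 (0.998 RPKM), and Eif4e3, Eif2c4 and Eif4e1b lay under 0.1 RPKM. The lowest genes inside it were Eif2c3 (1.76 RPKM) and Eif1a (3.47 RPKM). Eif2c2 and Eif2c3 are older names of Argonaute genes, whose proteins carry small RNAs, so 43 of the 45 genes encode initiation factors or proteins named after them.

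All animals were C57BL/6, and the cells were sorted at embryonic day 13.5 as double positive for CD71, the transferrin receptor, and Ter119, an antigen of maturing red cells. Both groups share this sort and stage. The labels give no Cre driver, no allele, no litter and no sex, and they do not say whether replicates came from separate embryos, and p-values therefore speak only of the scatter among these 6 libraries. Tfam encodes a protein that packages and transcribes mitochondrial DNA. Its mRNA was at 5.92, 7.22 and 6.25 RPKM in the KO libraries and 7.22, 8.44 and 5.72 RPKM in the WT libraries. These groups overlapped, and a gene-level value cannot show the loss of part of a gene, so KO and WT below go by the labels alone.

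Initiation of protein synthesis places a ribosome at the start codon of an mRNA. eIF2 brings the initiator tRNA to the small ribosomal subunit, eIF2B recharges eIF2 with GTP, and eIF3, eIF1, eIF1A and eIF5 hold the small subunit ready and check the start codon. The eIF4 factors bind the cap at the front of the mRNA and unwind it, and eIF5B joins the large subunit. In red cell precursors the eIF2 kinase HRI, encoded by Eif2ak1, is known to couple initiation to the supply of heme, because most of what these cells translate is globin.

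The libraries differed in ways that bear on every value below. RPKM sums were 424377 to 535933 in the KO libraries, and 461927, 423263 and 815524 in WT replicates 1, 2 and 3. WT replicate 3 correlated with the others at 0.930 to 0.962 across the log2 values of tested rows, while the other libraries correlated with each other at 0.973 or more. Erythroid markers were abundant in all libraries. Slc4a1, the anion exchanger of the red cell membrane, was between 3331 and 4681 RPKM in KO and between 3494 and 4164 RPKM in WT, and Tfrc, which encodes CD71, between 760 and 926 RPKM in KO and between 614 and 951 RPKM in WT. Epor, the erythropoietin receptor, did not overlap, at 112, 97.7 and 128 RPKM in KO, against 220, 215 and 389 RPKM in WT. Its log2 fold change was -1.23 (SE 0.28) and -0.95 without WT replicate 3, with a limma unadjusted p of 0.00321 and an adjusted p of 0.909 with all libraries, and its part in the results below was not tested. Summed hepatocyte, megakaryocyte, neutrophil and endothelial markers overlapped between the groups. Absolute read depth is unknown. Steps between low values gave depths of 91.7%, 84.4% and 79.0% in KO replicates 1, 2 and 3 and of 88.9% in WT replicate 1, each relative to WT replicate 2. That of WT replicate 3 was not resolved, since only 17.2% of its ratios lay on whole-read steps. That of KO replicate 1 is uncertain, with 39.9% on such steps, against 72.0% to 75.4% for KO replicates 2 and 3 and WT replicate 1.

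Initiation factor mRNAs were abundant in these cells, and no difference between KO and WT passed the test. Their median level was 64.0 RPKM against 10.54 RPKM for all tested rows, and 40 of the 43 lay above the median tested row. Eif5a, Eif1, Eif5, Eif3k and Eif4a1 were the highest, and Eif1a, Eif4g3 and Eif2b1 the lowest. With limma, 0 of the 45 genes passed an adjusted p of 0.05, where 0% of all tested rows did, and 0 of the 45 had an unadjusted p under 0.05, where 1.20% of rows did. The lowest unadjusted p among them was 0.174, for Eif2b4, at an adjusted p of 0.909. With the replicate number as a block, 0 of the 45 passed and 0 had an unadjusted p under 0.05, where 0% and 3.90% of rows did. The groups did not overlap in 1 gene, Eif3b, or 2.22% of the 45, against 4.54% of tested rows. In that gene KO lay below WT, as in 2.36% of tested rows, and in 0 genes KO lay above WT, as in 2.18%.

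**Figure D1:**
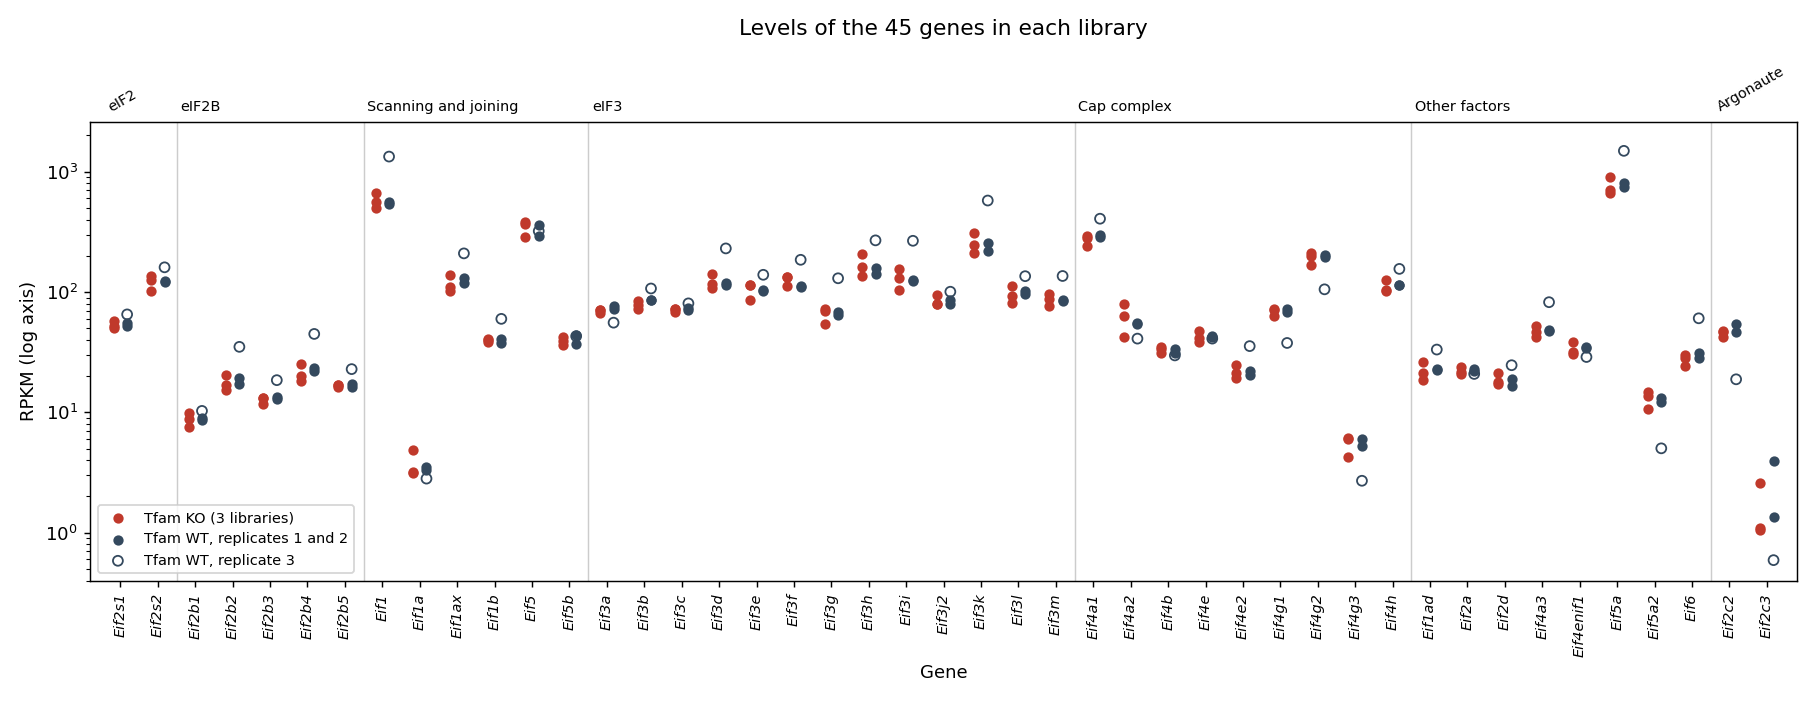
RPKM of each of the 45 genes (log axis) in the 3 KO libraries (red, left of each position), WT replicates 1 and 2 (filled, right) and WT replicate 3 (open, right), grouped by role. KO libraries and WT replicates 1 and 2 lie close together, and WT replicate 3 is the highest library in 30 genes and the lowest in 12.

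Most fitted differences pointed down in KO, and their size came largely from 1 WT library. A lower fitted value in KO was found for 32 of the 45 genes (71.1%) with a median log2 fold change of -0.14, where 53.0% of all tested rows were lower with a median of -0.02. Log2 fold changes here are KO over WT on log2(RPKM + 1), which understates changes of low genes. After quantile normalization 24 of the 45 were lower and the median was -0.02. Without WT replicate 3 the median was -0.03, with 28 of 45 lower (62.2%, against 55.0% of tested rows). In that comparison the log2 fold changes of the 43 initiation factors lay between -0.15 for Eif3b and 0.18 for Eif3f. Leaving out that library made the fitted difference smaller in 40 of the 45 genes and turned its sign in 20. The median 95% interval of a gene then spanned 0.72 on the log2 scale, counted from its lower to its upper end, against 1.10 with all libraries. With WT replicate 3 left out and the trend with transcript length removed, 33 of the 45 were lower, against 57.1% of tested rows. The median was -0.03, in a setting chosen after the data were seen. With limma's library weights, where WT replicate 3 weighed 0.0859, 37 were lower, against 56.4% of rows, and the median was -0.06. When only KO replicate 1 was left out, the median was -0.095 and 29 of the 45 were lower, against 52.5% of tested rows. Leaving out KO replicate 2 or 3, or WT replicate 1 or 2, gave medians of -0.21 to -0.16.

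**Figure D2:**
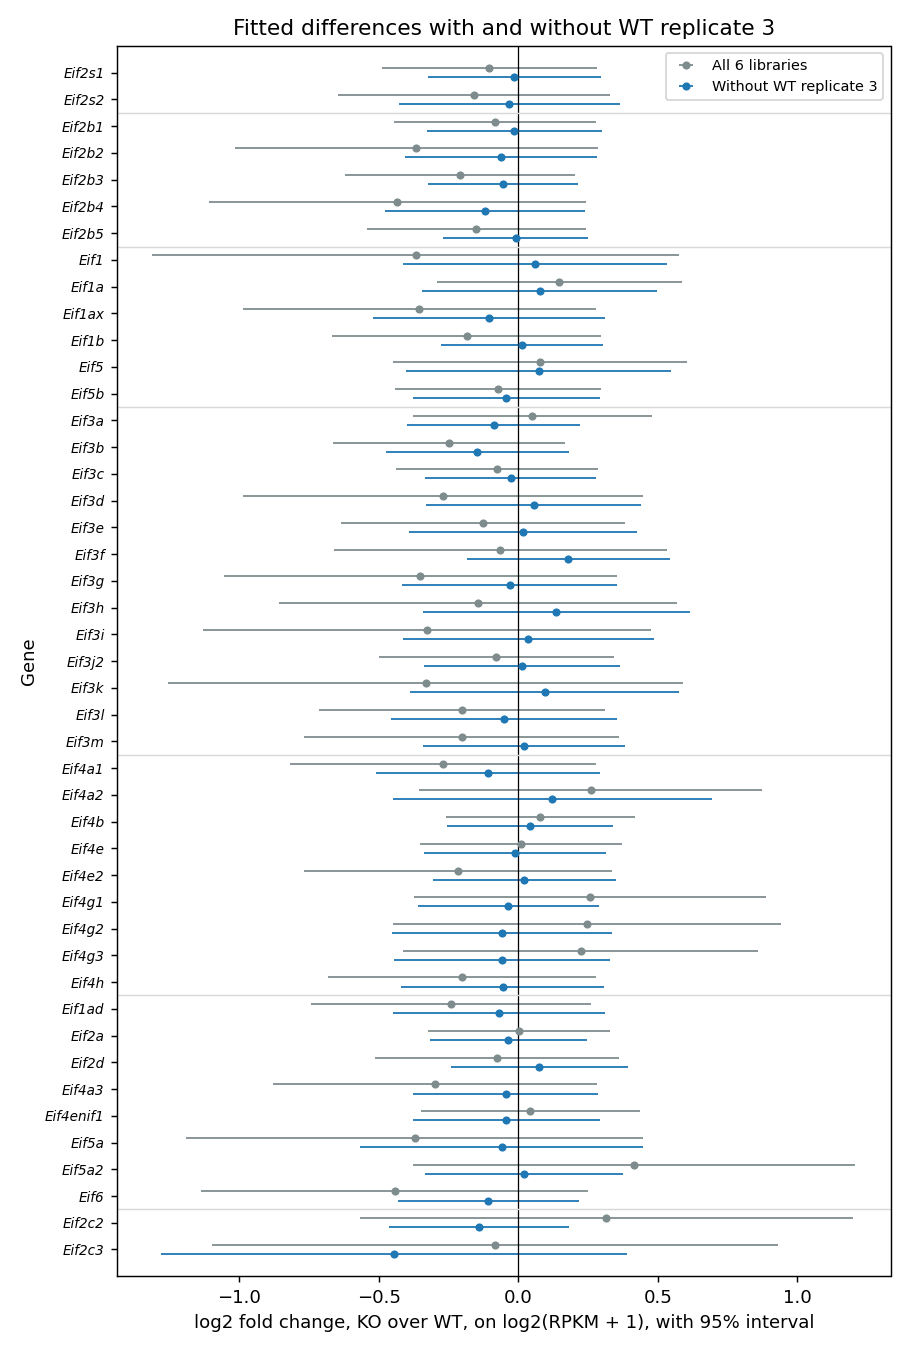
Fitted log2 fold change of each gene, KO over WT, on log2(RPKM + 1), with its 95% interval from limma, for all 6 libraries (grey) and without WT replicate 3 (blue). Every interval includes 0, and the blue points of the 43 initiation factors lie between -0.15 and 0.18.

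The deviation of WT replicate 3 followed transcript length. Length was taken as the longest annotated protein-coding transcript, which need not be the one these cells use, and the length limits given here were chosen after the values were seen. In all 15 genes under 2000 nt, WT replicate 3 was the highest library, at 1.35 to 2.43 times the mean of WT replicates 1 and 2. Of the 11 genes of 4000 nt or more it was the lowest in 7 and the highest in 1, Eif1ax, with a median ratio of 0.538. Across the 45 genes, the deviation of WT replicate 3 from the mean of all libraries correlated with log2 length at Pearson r = -0.81, against -0.54 over the 8261 tested rows with a length. The same correlation over the 45 genes was 0.81, 0.19 and -0.07 in KO replicates 1, 2 and 3. It was 0.64 and 0.78 in WT replicates 1 and 2. The mean they deviate from includes WT replicate 3. Genes are not independent replicates, and all values of a library share its scaling. The group difference depended on length as well. The 15 short genes had a median log2 fold change of -0.30 with all libraries and 0.01 without WT replicate 3, and the 11 long genes 0.08 and -0.06. Over the 45 genes, log2 fold change correlated with log2 length at Pearson r = 0.66 with all libraries and -0.47 without WT replicate 3. Without that library 7 of the 15 short genes and 9 of the 11 long genes had a lower fitted value in KO. WT replicate 3 was the highest library in 66.7% of the 45 genes and the lowest in 26.7%, against 41.7% and 37.2% of tested rows.

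**Figure D3:**
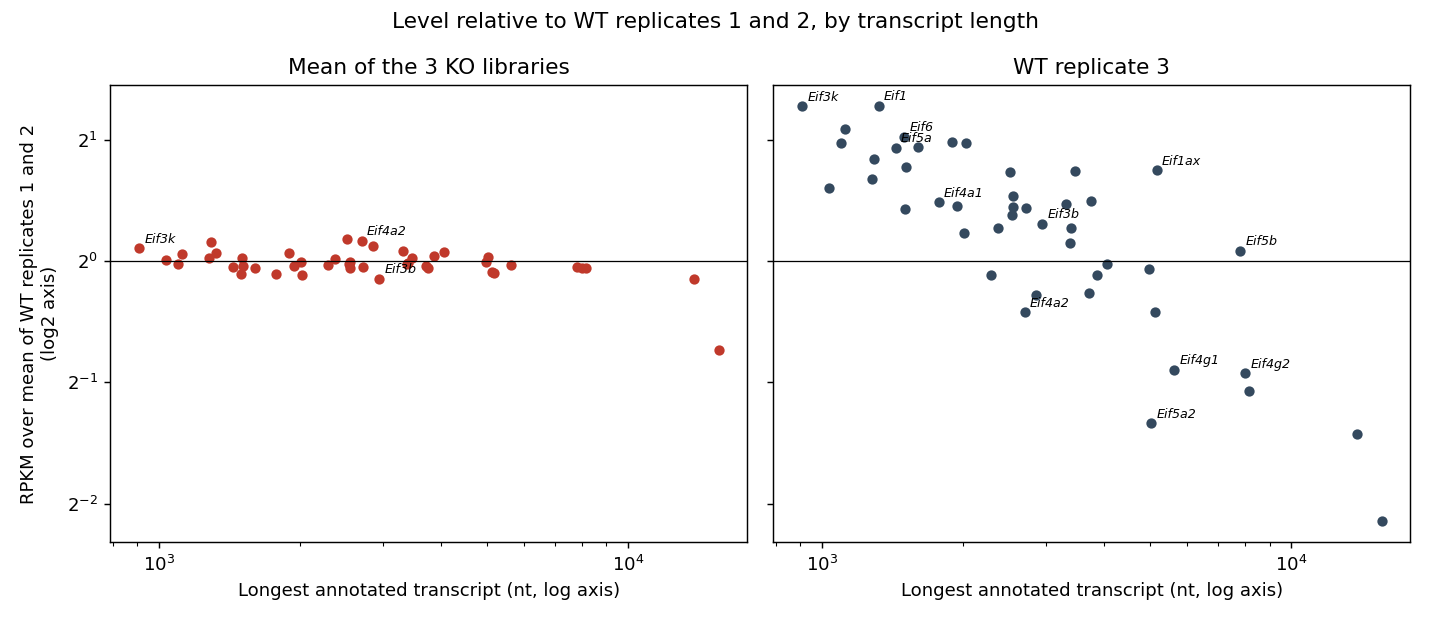
Level of each gene relative to the mean of WT replicates 1 and 2 (log2 axis) against the length of its longest annotated transcript (nt, log axis), for the mean of the 3 KO libraries (left) and WT replicate 3 (right). The right panel ranges from 2.43 for Eif1 to 0.226 for Eif2c3 and slopes down with length. For the initiation factors the left panel stays between 0.904 for Eif3b and 1.14 for Eif3f.

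Among the other 5 libraries, KO replicate 1 stood at the low end and KO replicate 3 at the high end. KO replicate 1 was the lowest of the 5 in 31 of the 45 genes, against 26.1% of tested rows, and KO replicate 3 the highest in 26, against 39.1%. The spread was small, with a median ratio of the highest to the lowest of these 5 libraries of 1.28 (1.36 over tested rows above 0). Within the numbered pairs, the median KO over WT ratio was 0.904 for pair 1, 0.997 for pair 2 and 0.821 for pair 3, against 0.978, 0.966 and 0.980 over tested rows. In 14 genes KO was lower in every pair (31.1%, against 20.1% of tested rows), among them Eif4a1, Eif5a, Eif1ax and Eif2b4, and in 2, Eif4a2 and Eif4g1, it was higher in every pair (4.44%, against 10.8% of tested rows).

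The genes of eIF2 differed little between the groups. Eif2s1 encodes the alpha subunit, the one that stress kinases phosphorylate, and was at 50.4, 52.7 and 57.3 RPKM in KO, against 55.5, 52.3 and 65.2 RPKM in WT. Eif2s2, for the beta subunit, was at 102, 125 and 136 RPKM in KO, against 122, 125 and 160 RPKM in WT. For both, KO replicate 1 was the lowest and WT replicate 3 the highest library, and the groups overlapped. Eif2s2 exceeded Eif2s1 by 2.03 to 2.46 times in every library, per transcript length. Without WT replicate 3 the log2 fold changes were -0.01 for Eif2s1 (95% interval -0.32 to 0.30) and -0.03 for Eif2s2 (-0.43 to 0.36).

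The third subunit, gamma, comes from an X-linked and a Y-linked gene that the selection left out, and their levels divided the libraries in another way than the labels. Eif2s3y was at 0.0227, 48.8 and 0 RPKM in KO, against 0, 34.7 and 39.5 RPKM in WT. Eif2s3x was at 75.6, 54.8 and 91.3 RPKM in KO, against 84.9, 58.8 and 47.0 RPKM in WT. Libraries with Eif2s3y had less Eif2s3x, and the 2 genes together gave 75.7, 104 and 91.3 RPKM in KO, against 84.9, 93.5 and 86.5 RPKM in WT. Xist, the RNA of the inactive X chromosome, was at 122, 0.0253 and 59.3 RPKM in KO, against 93.1, 0.0776 and 0.0230 RPKM in WT. Within a group, libraries with and without Eif2s3y are thus not repeats of 1 RNA sample, while KO replicates 1 and 3, and WT replicates 2 and 3, are not set apart by these genes. The groups hold different mixtures of these sex-linked transcripts, and the part of this in the other differences was not tested.

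**Figure D4:**
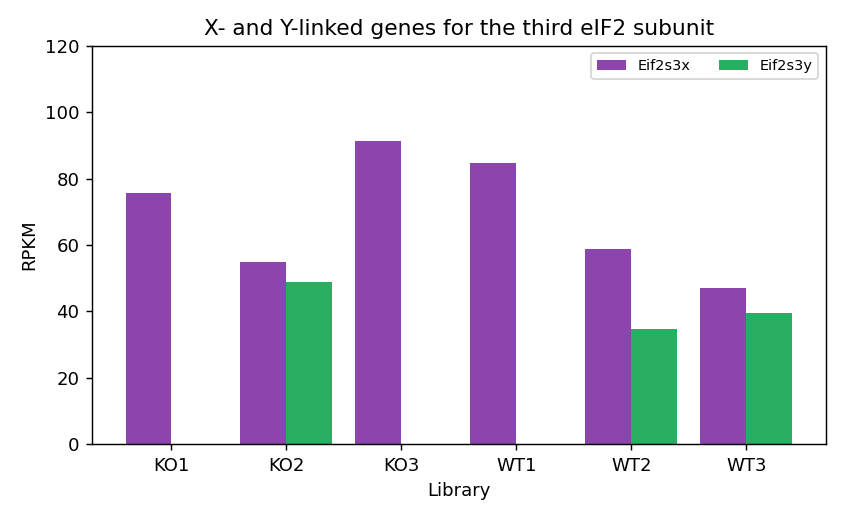
RPKM of Eif2s3x (purple) and Eif2s3y (green) in KO replicates 1 to 3 and WT replicates 1 to 3. Eif2s3y is present in KO replicate 2 and WT replicates 2 and 3, the libraries in which Eif2s3x is between 47.0 and 58.8 RPKM.

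All 5 subunits of eIF2B, the exchange factor that eIF2 phosphorylation inhibits, had a lower fitted value in KO, with WT replicate 3 the highest and KO replicate 1 the lowest library in each. None passed the test. Eif2b4, the delta subunit, was at 18.3, 20.0 and 25.0 RPKM in KO, against 23.4, 22.3 and 44.8 RPKM in WT. Eif2b2, the beta subunit, was at 15.3, 16.9 and 20.3 RPKM in KO, against 19.1, 17.3 and 35.0 RPKM in WT. In both the WT level of replicate 3 was close to 2 times that of the other WT libraries (ratios of 1.96 and 1.93), and the groups overlapped. Eif2b5, the catalytic epsilon subunit, was steadier, at 16.3, 16.9 and 16.9 RPKM in KO, against 17.3, 16.4 and 22.9 RPKM in WT. Eif2b3, for gamma, was at 11.7, 13.1 and 13.1 RPKM in KO, against 13.0, 13.3 and 18.5 RPKM in WT. Eif2b1, for alpha, was the lowest, at 7.53, 9.86 and 8.81 RPKM in KO, against 8.92, 8.64 and 10.3 RPKM in WT. The log2 fold change of Eif2b4 was -0.43 (SE 0.29) with all libraries and -0.12 (SE 0.15) without WT replicate 3, and over the 5 genes the median was -0.21 and -0.05.

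Of the factors that guard the start codon, Eif1 and Eif5 were among the most abundant. Eif1, which keeps the scanning ribosome open, was at 500, 558 and 670 RPKM in KO, against 562, 535 and 1336 RPKM in WT. Apart from WT replicate 3, the libraries lay within 500 to 670 RPKM. The log2 fold change was -0.37 (SE 0.40) with all libraries and 0.06 (SE 0.20) without that one. Eif5, which triggers GTP hydrolysis by eIF2 and in turn releases it, was at 366, 288 and 380 RPKM in KO, against 362, 292 and 321 RPKM in WT, with WT replicate 3 in the middle. Eif1ax, on the X chromosome, was at 102, 109 and 139 RPKM in KO, against 130, 119 and 209 RPKM in WT. It exceeded its autosomal relative Eif1a, at 3.11, 4.89 and 3.18 RPKM in KO, against 3.54, 3.29 and 2.81 RPKM in WT, by 22.4 to 74.4 times. Eif1b, a close relative of Eif1, was at 38.2, 39.9 and 41.0 RPKM in KO, against 40.9, 37.8 and 59.8 RPKM in WT. Eif5b, the subunit joining factor, was at 42.6, 36.1 and 38.9 RPKM in KO, against 44.0, 37.0 and 42.9 RPKM in WT. It is a long transcript in which WT replicate 3 did not stand out. The log2 fold change of Eif1ax was -0.35 (SE 0.27) and without WT replicate 3 -0.10. Reads of such paralogs can be split between copies, so their separate levels are uncertain.

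The 13 eIF3 genes, for the scaffold that binds the small ribosomal subunit, spanned mean levels of 69.2 to 303 RPKM. In 12 of 13 the fitted value was lower in KO with all libraries (median log2 fold change -0.20), and in 5 of 13 without WT replicate 3 (median 0.02). WT replicate 3 was the highest library in 12 and the lowest in Eif3a, the longest of these transcripts. Eif3k, a peripheral subunit and the shortest transcript of the 45, was at 212, 244 and 310 RPKM in KO, against 254, 220 and 576 RPKM in WT. Eif3h followed at 135, 160 and 205 RPKM in KO, against 157, 142 and 269 RPKM in WT, and Eif3i, a subunit that binds Eif3b and Eif3g, at 104, 130 and 155 RPKM in KO, against 126, 124 and 267 RPKM in WT. In all 3 the KO libraries spanned WT replicates 1 and 2. At the lower end, the core scaffold gene Eif3a was at 67.6, 71.4 and 71.2 RPKM in KO, against 72.0, 77.1 and 55.7 RPKM in WT. Eif3c, its partner in the core, was at 68.6, 72.5 and 73.0 RPKM in KO, against 71.4, 74.0 and 80.5 RPKM in WT. Eif3g, which binds RNA, was at 54.3, 69.9 and 72.1 RPKM in KO, against 68.2, 64.5 and 130 RPKM in WT.

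Eif3b, the core subunit that holds Eif3g and Eif3i, was the gene whose groups did not overlap. It was at 71.7, 78.5 and 83.8 RPKM in KO, with a mean of 78.0 ± 6.07 RPKM (SD, n = 3), and at 86.4, 86.2 and 107 RPKM in WT, with a mean of 93.2 ± 12.0 RPKM. The highest KO value lay just under the lowest WT value. The log2 fold change was -0.25 (SE 0.18, 95% interval -0.66 to 0.17) and without WT replicate 3 -0.15 (-0.48 to 0.18), with limma adjusted p of 0.909 and 1. Against WT replicates 1 and 2 alone, all KO libraries were also lower for Eif3a, so 2 of the 45 genes were lower in that way and 0 higher, against 5.90% and 5.42% of tested rows. Relative to the median eIF3 gene of the same library, Eif3k was at 2.60, 2.62 and 2.75 in KO and 2.51, 2.29 and 4.24 in WT, and Eif3a at 0.827, 0.766 and 0.631 in KO and 0.711, 0.803 and 0.409 in WT. These proportions among subunits overlapped between the groups and were most uneven in WT replicate 3. The other eIF3 genes, Eif3d, Eif3e, Eif3f, Eif3j2, Eif3l and Eif3m, had means of 86.5 to 138 RPKM, and Eif3j2 has a close copy, Eif3j1, so its level is uncertain.

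Among the 9 genes of the cap-binding complex, WT replicate 3 was the highest library in 3 and the lowest in 5. Eif4g1, the long scaffold that joins the cap-binding protein to the helicase and to eIF3, was at 70.8, 72.3 and 62.6 RPKM in KO, against 68.6, 71.8 and 37.7 RPKM in WT. Eif4g2, a relative that does not bind eIF4E, was more abundant, at 198, 168 and 211 RPKM in KO, against 204, 196 and 105 RPKM in WT, or 2.32 to 3.38 times Eif4g1. Eif4g3 was at 6.11, 6.02 and 4.22 RPKM in KO, against 5.28, 6.04 and 2.70 RPKM in WT. In all 3 WT replicate 3 was the lowest library. The log2 fold change was 0.26 for Eif4g1 and 0.25 for Eif4g2 with all libraries, and -0.04 and -0.06 without WT replicate 3.

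The helicase gene Eif4a1 was at 239, 281 and 290 RPKM in KO, against 297, 284 and 407 RPKM in WT. Its row also names Cd68, a macrophage gene. Summed over a list of 9 detected macrophage markers other than Cd68, the level was 4.55 to 11.7 RPKM in KO and 12.2 to 18.7 RPKM in WT. The most abundant of them by mean, C1qb, was at 1.34 to 2.56 RPKM in KO and 2.66 to 6.05 RPKM in WT, and none of the 9 was at 0. Cd5l, Marco and Csf1r, with means of 1.05 to 1.21 RPKM, were also lower in KO without overlap. KO lay below WT in this way in 2.36% of tested rows. The groups overlapped for Emr1, C1qa, C1qc, Vcam1 and Mrc1, and the mean of Mrc1 was higher in KO (0.315 against 0.217 RPKM). Differences in macrophage number and in RNA per cell cannot be told apart in bulk libraries, and the part of Cd68 in this row was not tested. The log2 fold change of the Eif4a1 row was -0.27 (SE 0.23), and -0.11 (SE 0.17) without WT replicate 3. Its paralog Eif4a2, on a row with the small nucleolar RNAs Snora81 and Snord2, was at 63.0, 79.3 and 42.6 RPKM in KO, against 55.8, 53.9 and 41.0 RPKM in WT. KO replicate 2 was the highest, and the ratio of Eif4a1 to Eif4a2 was 3.80, 3.55 and 6.80 in KO and 5.33, 5.27 and 9.92 in WT, with overlap. For Eif4a2 the log2 fold change was 0.26 (SE 0.26), and 0.06 without KO replicate 2.

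Eif4e, the cap-binding protein itself, was even across all 6 libraries, at 38.8, 41.6 and 47.7 RPKM in KO, against 42.3, 43.4 and 41.0 RPKM in WT. Its log2 fold change was 0.01 (95% interval -0.35 to 0.37). Eif4e2, a cap-binding relative linked to repression, was at 19.1, 21.4 and 24.6 RPKM in KO, against 22.1, 20.4 and 35.5 RPKM in WT. Eif4b, which stimulates the helicase, was at 30.8, 35.1 and 33.6 RPKM in KO, against 30.9, 33.4 and 29.7 RPKM in WT. Eif4h, a related cofactor, was at 103, 105 and 125 RPKM in KO, against 115, 115 and 156 RPKM in WT. In each of these the groups overlapped.

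Promoters of the cap-binding genes are shown because E-boxes, the CACGTG sites that Myc family factors can bind, recur in them. RefSeq promoter windows of build GRCm38.p6, from 250 bases before to 50 bases after a start, were matched for 35 of the 43 initiation factor genes. The letters CACGTG, which read the same on both strands, stood in 10 of the 35 (28.6%), against 8.1% of the 27025 genes in the table and 12.7% of the 6864 that had a tested row. Genes with several starts had several windows, some of them overlapping. CCGGAAG, an ETS-type motif searched on both strands, stood in 14 of the 35 (40.0%), against 24.9% of genes with a tested row. TGATGCAA, an ATF4-type motif, stood in 0 of the 35, against 0.6%. Among the cap-binding genes, Eif4a1, Eif4e, Eif4g1 and Eif4h held CACGTG. For 3 of them, a stretch of 60 bases around the motif, which lies wholly before the start, is given 5′ to 3′ along the gene, with the motif in capitals.
Eif4a1, chr11:69672580-69672639, minus strand: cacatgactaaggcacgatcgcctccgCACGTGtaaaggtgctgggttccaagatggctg
Eif4g1, chr16:20672646-20672705, plus strand: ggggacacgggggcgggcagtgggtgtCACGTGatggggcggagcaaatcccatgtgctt
Eif4h, chr5:134639473-134639532, minus strand: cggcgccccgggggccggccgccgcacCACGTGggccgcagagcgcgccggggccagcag
The motif begins 189 bases before the start in Eif4a1, 54 in Eif4g1 and 96 in Eif4h. With all libraries the fitted value was lower in KO for Eif4a1 and Eif4h and higher for Eif4g1, and without WT replicate 3 it was lower for all 3, with log2 fold changes of -0.11, -0.06 and -0.04 in the order Eif4a1, Eif4h and Eif4g1. The other genes that held CACGTG went both ways without WT replicate 3. Eif4e, Eif3a and Eif5a were lower in KO (-0.01, -0.09 and -0.06). Eif3f, Eif3k, Eif5a2 and Eif1b were higher (0.18, 0.09, 0.02 and 0.01). A match of letters does not show that a factor binds there.

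Eif5a, whose hypusine-bearing product helps ribosomes through difficult stretches, was the most abundant of the 45. It was at 659, 703 and 901 RPKM in KO, against 813, 746 and 1490 RPKM in WT, with a log2 fold change of -0.37 (SE 0.35) and of -0.06 (SE 0.22) without WT replicate 3. Its relative Eif5a2 went the other way in the fit, at 14.7, 10.7 and 13.7 RPKM in KO, against 12.2, 13.2 and 5.02 RPKM in WT. The ratio of Eif5a to Eif5a2 was 44.9 to 65.9 in KO and 56.6 to 66.4 in WT replicates 1 and 2, against 297 in WT replicate 3. Eif5a2 had the largest positive log2 fold change of the 45, 0.42 (SE 0.34), and 0.02 (SE 0.15) without that library. Eif6, which keeps ribosomal subunits apart, had the most negative one, -0.44 (SE 0.29), and -0.11 (SE 0.14) without it. Its levels were 24.4, 28.3 and 29.9 RPKM in KO, against 31.3, 28.0 and 60.5 RPKM in WT. The remaining genes, namely Eif4a3 of the exon junction complex, the eIF4E transporter Eif4enif1, the non-canonical factors Eif2a and Eif2d, and Eif1ad, had means of 19.4 to 53.2 RPKM and overlapping groups.

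The Argonaute genes behaved as the long transcripts did. Eif2c2 (Ago2) was at 47.7, 42.7 and 46.4 RPKM in KO, against 46.6, 54.3 and 18.8 RPKM in WT. Eif2c3 (Ago3) was at 2.59, 1.09 and 1.04 RPKM in KO, against 1.34, 3.91 and 0.591 RPKM in WT. WT replicate 3 was the lowest library for both, and the 5 other libraries of Eif2c3 varied by 3.74 times, the widest of the 45.

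Regulators of initiation were read from a list of 34 other translation genes, 33 of which were tested. With limma 0 of the 33 passed, with all libraries and without WT replicate 3, where 0% and 0.0120% of tested rows did. With all libraries 16 were lower and 17 higher in KO. Of the eIF2 kinases, the heme-regulated Eif2ak1 was by far the highest, at 350, 279 and 428 RPKM in KO, against 372, 299 and 426 RPKM in WT. Numbered libraries were close to each other in both groups. The viral RNA sensor Eif2ak2 (on a row with Gm6548), the endoplasmic reticulum sensor Eif2ak3 and the amino acid sensor Eif2ak4 had KO means of 7.85, 1.82 and 1.58 RPKM and WT means of 6.81, 1.68 and 1.54 RPKM. Ppp1r15a, the stress-induced subunit of the eIF2 phosphatase, was at 325, 253 and 376 RPKM in KO, against 361, 286 and 756 RPKM in WT, and Ppp1r15b, the constitutive one, at 61.2, 59.9 and 55.1 RPKM in KO, against 58.4, 63.0 and 43.6 RPKM in WT.

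Eif4ebp1 and Eif4ebp2, inhibitors of Eif4e, both had a fitted log2 fold change of 0.41 with all libraries, and neither passed the test. Eif4ebp1 blocks cap binding when mTORC1 is inactive and is a known target of ATF4. Its level was 11.8, 18.9 and 11.7 RPKM in KO, against 6.13, 11.2 and 15.0 RPKM in WT. With all libraries the groups overlapped, and the fitted log2 difference, KO over WT, was 0.41 (95% interval -0.36 to 1.18). Without WT replicate 3, its highest WT library, every KO library lay above both remaining WT libraries, as in 5.42% of tested rows. The margin was small (11.7 against 11.2 RPKM). Eif4ebp1 then had a log2 fold change of 0.67 (0.03 to 1.31), an unadjusted p of 0.0435 from limma and an adjusted p of 1. It was the 1 gene of the 33 under an unadjusted p of 0.05 there, where 2.20% of tested rows were. Eif4ebp2, the more abundant inhibitor, was at 43.5, 38.9 and 42.2 RPKM in KO, against 37.8, 37.1 and 21.2 RPKM in WT, so that all KO values lay above all WT values, with WT replicate 3 the lowest. Its log2 fold change was 0.41 (SE 0.24) with all libraries and 0.14 (SE 0.13) without WT replicate 3, at limma unadjusted p of 0.136 and 0.288. KO lay above WT without overlap in 2 of the 33 genes (6.06%), against 2.18% of tested rows, and below it in 0, against 2.36%. The other was the release factor Gspt1, on a row with Mir1945, at 20.4, 21.9 and 20.4 RPKM in KO, against 20.4, 20.3 and 14.3 RPKM in WT, where KO and WT replicates 1 and 2 lay close together.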

How the data were processed

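RNA was extracted as total RNA and made into libraries with a TruSeq kit for a NextSeq 500, per the labels' protocols. The authors deposited 1 table of RPKM values with 1 column per library, made with TopHat and Cufflinks on build mm9, per the submitters' processing notes. The sources used here name no version, gene annotation or strand setting. Of 23119 rows, 25 named by a number (0.158% of the RPKM sum) were left out, and 492 join several names. For a symbol on several rows the row with the highest mean was used. Rows averaging 1 RPKM or more (8302) entered limma 3.58.1, run in R 4.3.3, as log2(RPKM + 1) values. The fit used a variance trend and Benjamini-Hochberg adjustment over all rows at 0.05. Intervals are 95% intervals from that fit. Read depth is unknown, so single values carry no interval. The fit was checked on simulated data, drawn independently for each gene and library. Such draws hold no length trend and no outlying library, so the check does not cover these. Lengths came from GENCODE M21 (longest protein-coding transcript), for 8261 tested rows and all 45 genes, and only lengths, no coordinates, were taken across builds. Figures used Python 3.11.15 and matplotlib 3.10.9.

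The genes, gene lists and tests were chosen with earlier results of these data known. Values in every library were to be given for eIF2, eIF2B, the scanning and joining factors, the cap-binding complex, Eif5a, Eif6, the 3 highest and 3 lowest eIF3 genes by mean, and any gene whose groups do not overlap or with an unadjusted p under 0.05. Eif5a2, the Argonautes and the regulators given in full were added after their values were seen. Both groups are numbered 1 to 3. Each library was set against its group mean, and these deviations correlated at 0.46, 0.17 and 0.53 between libraries numbered 1, 2 and 3, each above 0.1, so same-numbered libraries were treated as pairs. Of the differently numbered libraries, KO replicate 1 and WT replicate 2 correlated at 0.40, above the 0.17 of the libraries numbered 2. KO replicate 2 and WT replicate 1 correlated at 0.03, and the others at -0.51 to -0.13. Deviations within a group are not independent of each other, so the check cannot establish pairs. The pairing rests on this check and on no label.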

Additional observations from a re-analysis of the deposited data

How the results depend on the processing

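The count of rows called over the whole table was 0 with all libraries, 60 with limma's library weights (WT replicate 1 weighed 21.4, WT replicate 2 had 0.565 and WT replicate 3 had 0.0859), 0 to 2 when 1 library was left out, and 1 without WT replicate 3 with the length trend removed, an alternative chosen after the data were seen. The cause was not tested. Under every alternative, the replicate block included (0 called), 0 of the initiation factor genes were called. Their median log2 fold change stayed negative, from -0.21 without WT replicate 2 to -0.02 with quantile normalization, with -0.14 under the replicate block and -0.11 with the length trend removed. With the replicate block and the length trend removed together, 4 of the 45 had an unadjusted p under 0.05, where 8.32% of tested rows did. Signs turned for Eif1, which ranged from -0.60 to 0.060 when 1 library was left out, Eif4g1 (-0.036 to 0.42) and Eif4g2 (-0.059 to 0.41), in each only without WT replicate 3. With that library out and the length trend removed they were 0.028, -0.021 and -0.027, and with library weights Eif4g2 was at -0.11. Eif3b, Eif2b4, Eif6, Eif5a2, Eif5a, Eif4a1, Eif4a2 and Eif1ax kept their sign throughout. Depth limits are unknown, since the table holds no counts.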

Other observations

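Factors of the later steps of translation were read from the same list. The elongation factors carry aminoacyl-tRNA to the ribosome and move it along. Eef1a1 was at 2164, 2525 and 2932 RPKM in KO, against 2307, 2354 and 3106 RPKM in WT, and Eef2 at 619, 645 and 760 RPKM in KO, against 633, 629 and 746 RPKM in WT. Of 7 elongation genes 6 had a lower fitted value in KO with all libraries and 3 without WT replicate 3, and 0 passed the limma test in either. Pabpc1, which binds the poly(A) tail and Eif4g1, was at 1688, 1402 and 1898 RPKM in KO, against 1460, 1210 and 2041 RPKM in WT, higher in KO in pairs 1 and 2 and lower in pair 3. The release factor Etf1 had means of 36.9 ± 3.13 RPKM in KO and 36.0 ± 1.82 RPKM in WT (SD, n = 3 each), and the recycling factor Abce1 of 36.0 ± 1.73 RPKM in KO and 31.6 ± 8.87 RPKM in WT, with 21.4 RPKM in WT replicate 3. Mtif2, the mitochondrial initiation factor that brings the initiator tRNA, was at 9.55, 9.97 and 10.7 RPKM in KO, against 9.41, 9.81 and 8.81 RPKM in WT, and Mtif3 at 3.06, 2.84 and 3.38 RPKM in KO, against 3.70, 2.87 and 5.52 RPKM in WT. In Mtif2 KO was higher in every numbered pair, as in 10.8% of tested rows, by small margins in pairs 1 and 2. In Mtif3 KO was lower in every pair, as in 20.1% of tested rows, by a small margin in pair 2.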
